A study of Mus musculus with 44 samples.

Results

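RNA recovered with control IgG from C2C12 cells was measured on 15 Illumina bead arrays, out of 44 arrays in the whole study. The arrays were those whose column names give IgG, 4 from growing cells (day 0), 3 from day 2, 4 from day 4 and 4 from day 6 of differentiation. C2C12 is a line of mouse myoblasts. Per the labels' protocols, growing cells had 10% fetal bovine serum and differentiation began on sub-confluent cultures with medium holding 2% horse serum. Lysates were incubated with protein A beads carrying either a control IgG or an antibody against AUF1, an RNA-binding protein, and the RNA left on the washed beads was purified after digestion of DNA and protein. The study also has 14 arrays of AUF1 pulldown RNA and 15 arrays of input RNA, which did not pass over beads. All samples come from 1 cell line, and the labels do not say whether the samples of a day came from separate cultures, so p-values measure only the spread between these samples, which may be technical.

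When serum is lowered, myoblasts leave the cell cycle, switch on the myogenic transcription factors and the genes of the contractile apparatus, and fuse into myotubes. A control IgG has no target in the cell. The RNA it carries down is what sticks to beads, antibody and tube, so it is drawn from the transcripts present in the lysate and serves as the background against which a specific pulldown is judged. The comparison over days asked how this background moved as the transcriptome of the cells moved.

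The table names probes by Illumina identifier, and 0 of 25697 identifiers occurred in the gene table at hand. Results are therefore given for probes, no gene or sequence is attached to them, and the cell type of the label could not be checked against marker genes.

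The share of probes detected per array averaged 42.02% ± 5.49 in the 4 IgG arrays of day 0 (SD). It was 41.2% ± 1.78 in the 3 of day 2, 40.1% ± 9.80 in the 4 of day 4 and 43.05% ± 4.93 in the 4 of day 6. A probe counted as detected where the deposited detection p-value was under 0.05. Before normalization the signal averaged 278 ± 87.9 over the day 0 arrays. The averages were 228 ± 40.8 for day 2, 274 ± 135 for day 4 and 261 ± 37.2 for day 6. None of 5 differences between days passed an exact permutation test (two-sided), with adjusted p of 1 for each detected share and 0.971 for each mean signal. The smallest p these group sizes allow is 0.0286 before adjustment. After adjustment over the 5 pairs, a lone pair at that p could not have passed 0.05. Input arrays lay closer together, at 44.7% to 48.7% detected.

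**Figure D1:**
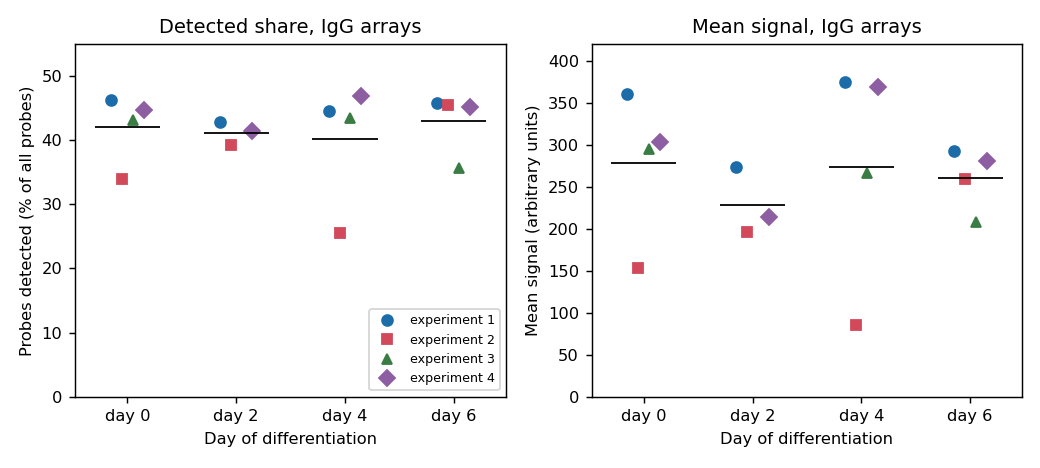
Share of the 25697 probes detected (left, %) and mean deposited signal (right, arbitrary units) on each of the 15 IgG arrays by day; symbols give the experiment number of the column name and bars the mean of a day. The array of experiment 2 on day 4 (25.6% detected), that of experiment 2 on day 0 (34.02%) and that of experiment 3 on day 6 (35.7%) lie below the other 12 (39.3% to 46.8%).

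A set of 3 arrays stood apart, and counts are given below with and without it. Detection was 25.6% in experiment 2 of day 4, 34.02% in experiment 2 of day 0 and 35.7% in experiment 3 of day 6. The other 12 arrays ran from 39.3% to 46.8%. The experiment number is the number after the letter E in the column names. It runs over all days, and each experiment holds an array of every day except experiment 3, which has none on day 2. Over the 12940 tested probes, the day alone accounted for 24.8% of the variance between IgG arrays, and the experiment number alone for 39.4%. Any split of so few arrays into as many groups takes up a part of the variance, and that part was not estimated. Arrays of the same experiment deviated together from their day means on days 0, 2 and 4. Correlations across probes were 0.53 to 0.71 for days 0 and 2, 0.49 to 0.72 for days 0 and 4, and 0.31 to 0.60 for days 2 and 4. The numbers were taken as pairs there. Counts, SE and adjusted p below nevertheless come from fits without the experiment number, except where it is named as a block. With day 6 the numbers were not taken as pairs, since experiment 2 had correlations of -0.03 with day 0 and -0.15 with day 4. The median SD of a probe within day 0 was 0.45 (log2), that within day 2 was 0.32, and those within days 4 and 6 were 0.49 and 0.40.

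Between day 2 and day 0, 89 of 12940 probes differed (0.688%), 65 higher on day 2 (0.502%) and 24 lower (0.185%). The probes were called by limma at a Benjamini-Hochberg adjusted p under 0.05, after the 15 arrays had been background corrected and quantile normalized among themselves. All 65 of the higher probes and 23 of the lower ones differed by at least 2-fold, with a median size over the 89 of 1.90 (log2). Blocking on the experiment number gave 183 calls, of which 134 were higher and 49 lower on day 2. Leaving out the 3 arrays of low detection gave 247 higher and 171 lower, and both steps together gave 773 higher and 948 lower, so that the excess of higher probes was not kept there.

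ILMN_2610744 stood at 13.09, 13.08 and 13.40 (log2 signal) on the day 2 arrays of experiments 1, 2 and 4, against 8.59, 10.21, 9.47 and 9.21 on the day 0 arrays of experiments 1 to 4. The days did not overlap, and every day 2 array lay more than 2 log2 units above every day 0 array. The change was 3.82 ± 0.31 (log2, SE; limma adjusted p = 1.3e-05). ILMN_2747959 stood at 12.23, 11.79 and 12.41 on day 2, against 7.42, 9.02, 8.49 and 6.98 on day 0, a change of 4.17 ± 0.39 (adjusted p = 5.8e-05). Over the later days this probe had means of 12.14 ± 0.32 (SD, n = 3) on day 2, 12.13 ± 0.22 (SD, n = 4) on day 4 and 12.49 ± 0.19 (SD, n = 4) on day 6. In input RNA, these probes were higher on day 3 than on day 0 by 5.90 (adjusted p = 3.4e-07) and 4.99 (adjusted p = 8.3e-07).

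The lowest changes belonged to ILMN_2875585 and ILMN_2996648. ILMN_2875585 stood at 6.87, 6.65 and 7.16 on day 2, against 9.47, 8.55, 9.23 and 11.37 on day 0, where the array of experiment 4 was the highest. Its change of -2.76 ± 0.60 (adjusted p = 0.0490) lay just inside the threshold and was lost under 17 of 26 alternatives. ILMN_2996648 differed by -2.55 ± 0.54 (adjusted p = 0.0453) and lost its call under 16 of 26. Adjusted p lay between 0.00013 and 0.876 for ILMN_2875585 and between 0.00015 and 1 for ILMN_2996648, and the direction held under all 26. The count of 89 fell to 39, 34 and 57 without the day 2 arrays of experiments 1, 2 and 4 and to 48, 50 and 52 without the day 0 arrays of experiments 1, 3 and 4. It stood at 136 without the day 4 array of experiment 2.

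By day 4, 210 probes differed from day 0 (1.62%), 170 higher (1.31%) and 40 lower (0.309%). At least 2-fold changes made up 166 of the higher and 37 of the lower probes, with a median size over the 210 of 1.86 (log2). The experiment block gave 376 calls, 269 of them higher and 107 lower. Without the 3 arrays of low detection, 347 were higher and 117 lower, and with the block as well 831 higher and 695 lower. The count was 131 without the day 0 array of experiment 3 and 133 without the day 4 array of experiment 3. In a fit of the arrays of days 0 and 4 alone it was 117.

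ILMN_1260428 stood at 10.71, 10.98, 13.52 and 13.49 (log2 signal) on the day 4 arrays of experiments 1 to 4, against 4.37, 4.44, 4.64 and 4.89 on the day 0 arrays. It was detected on 4 of 4 arrays of day 4 and on 1 of 4 of day 0, and experiments 3 and 4 were the higher ones on day 4. The change was 7.59 ± 0.64 (SE; adjusted p = 7.8e-06). With 3 of 4 day 0 arrays not above background its size depends on the correction, and without background correction it was 5.78. On day 2 this probe stood at 6.86, 7.68 and 9.39, between the levels of days 0 and 4 on each array. ILMN_2933357 stood at 9.59, 10.82, 10.54 and 10.83 on day 4 and was detected on 0 of 4 day 0 arrays (4.58, 5.21, 4.50 and 4.40). It was at least 46.8-fold higher on day 4 (adjusted p = 3.9e-06), a bound that sets the day 0 arrays at the lowest value of a detected probe or at the probe's own value, whichever is higher. The bound holds for the background-corrected scale, and without that correction the change was 4.01 (log2; adjusted p = 4.1e-05). ILMN_2875585 and ILMN_2996648 were again the lowest, with -2.57 ± 0.55 (adjusted p = 0.0267) and -2.56 ± 0.50 (adjusted p = 0.0137). Of 26 alternatives, 9 took the call from ILMN_2875585 (adjusted p between 1.2e-05 and 0.277 over all of them) and 4 from ILMN_2996648 (between 1.8e-05 and 0.301). For ILMN_2875585 the day 4 array of experiment 2, at 8.47, was close to the day 0 array of the same experiment, at 8.55. On the other day 4 arrays it stood at 6.18, 6.62 and 7.06. Both arrays of experiment 2 were of low detection. The deposited signals of the probe there were 83.6 on day 4 and 173.9 on day 0, so the closeness holds for the normalized scale alone.

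By day 6, 250 probes differed from day 0 (1.93%), 225 higher (1.74%) and 25 lower (0.193%), with 222 and 23 changed by at least 2-fold. The median size of the called changes was 1.67 (log2). Without the 3 arrays of low detection 358 were called, 292 higher and 66 lower. Array weights called 729 higher and 503 lower, so that the excess of higher probes was smaller there. Without the day 6 array of experiment 4 the count was 160 and without the day 0 array of experiment 1 it was 155. ILMN_1260428 was the highest again, at 11.63, 12.90, 12.42 and 11.84 on day 6, a change of 7.61 ± 0.64 (adjusted p = 6.7e-06) from the day 0 values above. ILMN_2954987 stood at 11.76, 12.52, 12.28 and 11.55 on day 6, against 6.31, 6.82, 7.07 and 6.56 on day 0, and differed by 5.34 ± 0.38 (adjusted p = 1.6e-06). These groups lay more than 4 log2 units apart. ILMN_2875585, at 5.89, 6.20, 5.03 and 6.07 on day 6, differed by -3.86 ± 0.55 (adjusted p = 0.00108). For ILMN_2996648 the change was -3.80 ± 0.50 (adjusted p = 0.000578). Under median scaling both calls were lost (adjusted p = 0.0758 and 0.0790), and the other 24 of 25 alternatives kept them. The lowest day 6 value of each was on the array of experiment 3, where neither was detected.

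**Figure D2:**
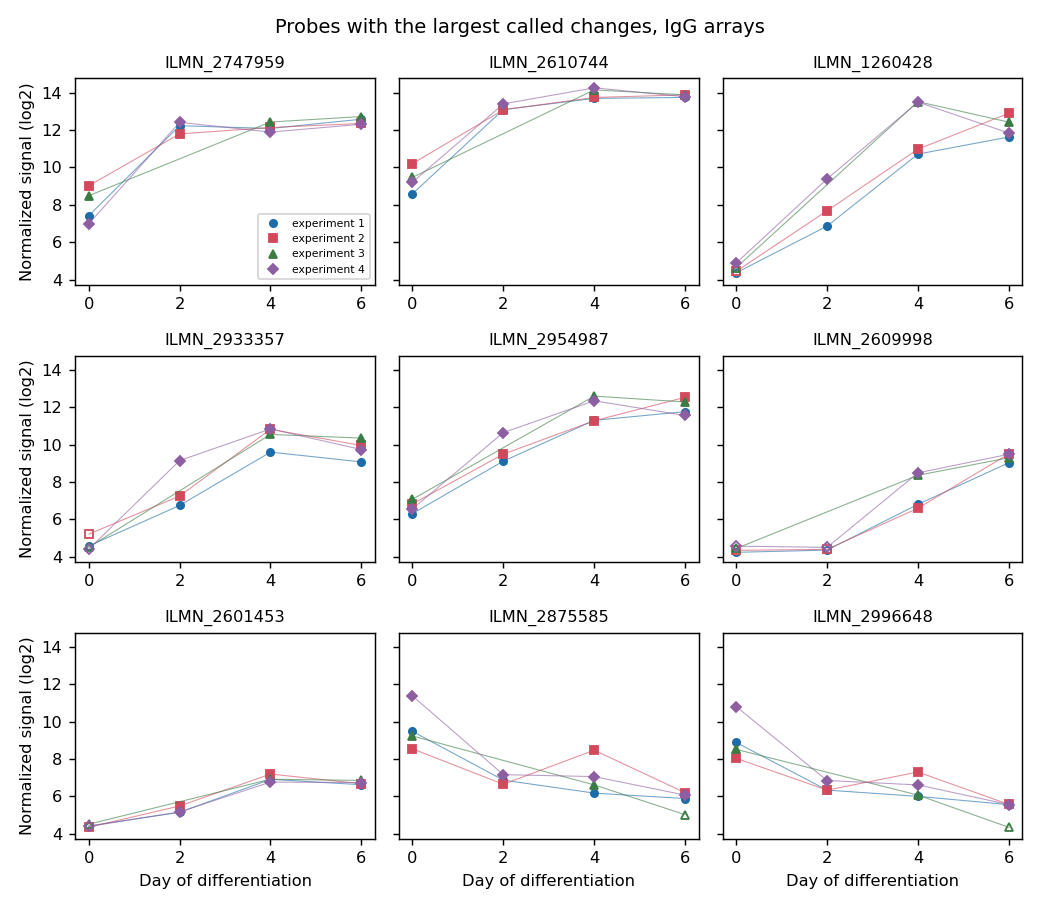
Normalized log2 signal of the 9 named probes on each of the 15 IgG arrays by day (x axis, days); colours and symbols give the experiment number, lines join its arrays, and open symbols are arrays where the probe was not detected. ILMN_2747959 and ILMN_2610744 were near their later level on day 2, ILMN_1260428, ILMN_2933357 and ILMN_2954987 stood at an intermediate level on day 2, and ILMN_2609998 was not detected before day 4.

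Median scaling in place of quantile normalization gave fewer calls and left the lower probes almost without any. It called 5 higher and 0 lower on day 2, 22 and 0 on day 4, and 39 and 1 on day 6, with 332, 523 and 598 probes at an unadjusted p under 0.05. The median of all tested probes shifted by -0.12 (log2) on day 2 under this scaling, -0.08 on day 4 and 0.02 on day 6. Relative to that shift, all 89, 210 and 250 probes called after quantile normalization kept their direction. That carries little weight, since they were called on these same arrays and nearly all had changed by at least 2-fold. Array weights called 433 higher and 311 lower on day 2 and 441 and 194 on day 4. Without background correction the following named changes were over 1.5 times smaller in fold. On day 6 against day 0 it gave 5.79 (log2) for ILMN_1260428, 4.64 for ILMN_2954987, -2.81 for ILMN_2875585 and -2.53 for ILMN_2996648. On day 4 it gave -1.92 for ILMN_2996648, and on day 2 it gave -1.93, which was not called (adjusted p = 0.0784). Between days 4 and 2 it gave 0.85 for ILMN_2601453.

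Between consecutive days after day 2 few or no probes passed. From day 2 to day 4, 2 probes differed (0.0155%), both higher on day 4, with 330 at an unadjusted p under 0.05. ILMN_2609998 stood at 6.80, 6.60, 8.36 and 8.48 on day 4 and was not detected on any of the 3 day 2 arrays (4.35, 4.40 and 4.50). It was at least 6.43-fold higher on the background-corrected scale (adjusted p = 0.00613). Without the correction the change was 1.68 (log2) and was not called (adjusted p = 0.100). By day 6 it had a mean of 9.32 ± 0.22 (SD, n = 4). ILMN_2601453 stood at 6.91, 7.20, 6.92 and 6.77 on day 4, against 5.15, 5.49 and 5.17 on day 2, a change of 1.68 ± 0.19 (adjusted p = 0.00440). It was detected on 3 of 3 day 2 arrays and on 0 of 4 day 0 arrays. Its 7.20 on day 4 was on the array of experiment 2, with 25.6% of probes detected. The deposited signal there was 66, below the 78.7, 69.3 and 67.7 of the day 2 arrays. On the other day 4 arrays it was 229.5, 155.8 and 219.6. ILMN_2609998 had 63 on the array of experiment 2, against 213.3, 369.7 and 630.8 on the other day 4 arrays. Without the array of experiment 2 both calls were kept (limma adjusted p = 0.00358 and 0.00115). Of 26 alternatives, 4 took the call from ILMN_2609998 and 3 from ILMN_2601453, with adjusted p as low as 5.3e-05 and 4.3e-05 and as high as 1 for both. With the experiment block 14 probes were called, all higher, and without the 3 arrays of low detection 3. The count was 0 without the day 2 array of experiment 1 (limma; 140 at an unadjusted p under 0.05), 5 without that of experiment 4, and 11 and 4 without the day 4 arrays of experiments 1 and 2. A fit of days 2 and 4 alone called 0, with 216 at an unadjusted p under 0.05.

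From day 4 to day 6 limma called 0 probes (0%), while 726 (5.61%) had an unadjusted p under 0.05. The experiment block also called 0, and there 1752 passed without adjustment. Leaving out the 3 arrays of low detection gave 0 as well, with 641 at an unadjusted p under 0.05. Array weights, which count arrays of large spread less, called 411, 223 higher and 188 lower. The 65 probes higher on day 2 than on day 0 changed by a median of -0.10 (log2) from day 4 to day 6, and 29 of them were higher on day 6. The 24 lower probes changed by a median of 0.42, and 19 of them were higher on day 6. These comparisons share no array. Over all 12940 tested probes the median was 0.04, and 7022 were higher on day 6.

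**Figure D3:**
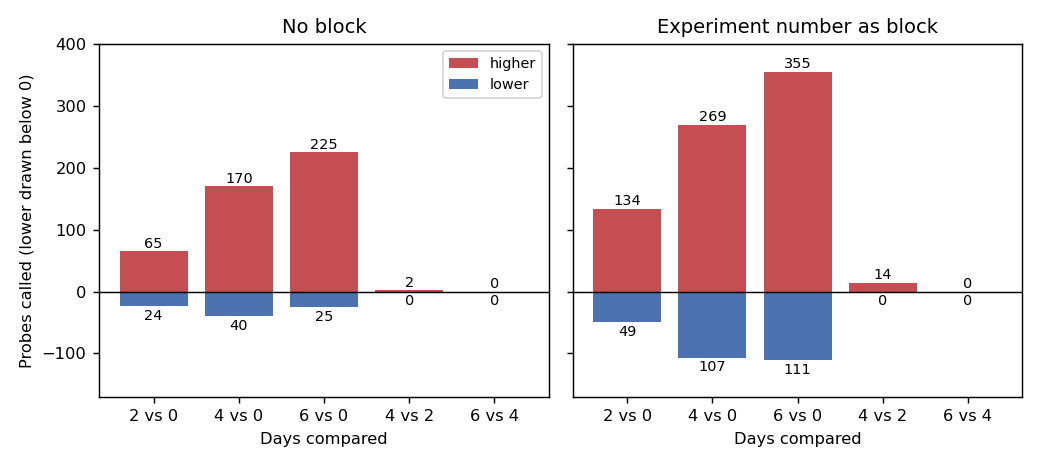
Number of the 12940 tested probes called higher (above 0) and lower (drawn below 0) on the later day of each comparison in IgG pulldown RNA, without (left) and with (right) the experiment number as a block. Between days 4 and 2 the fits called 2 probes without the block and 14 with it, and between days 6 and 4 both called 0.

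A test of any difference between the 4 days called 191 probes (1.48%). The direction of their means is a description of the called probes. On 160 of them the mean of day 0 was the lowest of the 4 days and on 29 it was the highest. The highest mean fell on day 2 for 13 probes, on day 4 for 69 and on day 6 for 80. In 66 the means rose on each successive day. The count was 114, 120 and 125 without the day 0 arrays of experiments 1, 3 and 4, and 422 without the 3 arrays of low detection.

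Presence calls gave a similar count of gains and losses on day 2 and an excess of gains on day 6. On day 2, 37 probes were detected on all arrays and on no day 0 array, and 27 were detected on all day 0 arrays and on none of day 2. On day 6, 102 were gained and 9 lost in this sense, and on day 4 it was 27 and 7. An array of low detection limits these counts on each day, since a gain on day 4 or 6 had to be detected on that day's low array and a loss on any day had to be detected on the day 0 array with 34.02%. Of the gained probes, 26 of 37, 21 of 27 and 76 of 102 on days 2, 4 and 6 had also risen in input RNA on day 3, day 3 and day 6, where 16.8%, 16.8% and 18.6% of all tested probes had. Of the lost probes, 11 of 27, 2 of 7 and 2 of 9 had fallen in input, where 20.4%, 20.4% and 23.1% of all tested probes had. Among the lost probes 3, 0 and 0 were called lower in IgG, where 0.185%, 0.309% and 0.193% of all tested probes were. Among the gained ones 7, 18 and 43 were called higher, where 0.502%, 1.31% and 1.74% of all were. These calls rest on the same arrays as the presence calls, and a gained probe could pass the detection filter through the later day alone. They are therefore no separate support for the gains or losses. Across all days 5277 probes were detected on all 15 IgG arrays and 10228 on none.

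Input RNA itself changed at 5148 of 13750 probes by day 3 (37.4%; 17.2% higher and 20.3% lower) and at 5835 by day 6 (42.4%; 19.5% higher and 23% lower). Measured on other arrays, it gave groups of probes that were chosen without the IgG values. Input and IgG arrays share experiment numbers, so the 2 kinds of array may not be independent. Each input day has 5 arrays from 4 experiment numbers, so 2 arrays share a number. The fits without a block counted all 5 as separate samples, which may overstate the replication. Input was taken on days 0, 3 and 6, so IgG on days 2 and 4 was set beside input on day 3, which is not the same day. Of the 977 probes that rose at least 2-fold in input by day 3, 918 were tested in IgG, and 58 rose there by day 2 and 148 by day 4, while 0 and 1 fell. Of the 944 that fell at least 2-fold in input, 917 were tested, and 18 fell in IgG by day 2 and 23 by day 4, while 0 rose on either day. Set against all tested probes, the shares were 6.32% and 16.1% for the rising list, where 0.502% and 1.31% rose, and 1.96% and 2.51% for the falling list, where 0.185% and 0.309% fell. By day 6 the rising list held 1151 probes, with 1063 tested in IgG, of which 177 rose (16.7%, against 1.74% of all) and 3 fell. The falling list held 1145, with 1115 tested, of which 12 fell (1.08%, against 0.193%) and 1 rose.

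Most members of these lists did not pass the test in IgG, but as lists they were displaced in the direction of input. Over all listed probes, whether or not they passed the detection filter, the median IgG change of the rising list was 0.37 (log2) on day 2, 0.56 on day 4 and 0.44 on day 6. The falling list had medians of -0.39, -0.55 and -0.29, and all probes had -0.01, 0.00 and -0.01. The same probes had changed in input by medians of 1.52 and -1.37 on day 3 and 1.58 and -1.37 on day 6. They were chosen by that input change, which favours a larger size in input than in IgG. Without background correction the rising list had medians of 0.20, 0.37 and 0.25 and the falling list -0.24, -0.36 and -0.19. Shares of probes above 0 were 76.3%, 84.1% and 82.0% in the rising list and 16.1%, 7.73% and 23.3% in the falling list.

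The displacement was seen within each experiment for the rising list. Taken between arrays of the same experiment, the median change of the rising list was 0.36, 0.27 and 0.43 on day 2 (experiments 1, 2 and 4). On day 4 it was 0.50, 0.34, 0.65 and 0.75, and on day 6 it was 0.41, 0.40, 0.49 and 0.61 (experiments 1 to 4). For the falling list it was -0.44, -0.14 and -0.49 on day 2, -0.44, -0.50, -0.55 and -0.57 on day 4, and -0.21, 0.04, -0.45 and -0.45 on day 6. Experiment 2 was thus on the other side of 0 for the falling list on day 6. Its day 0 array is one of the 3 with low detection, and the part of that in this value was not tested.

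**Figure D4:**
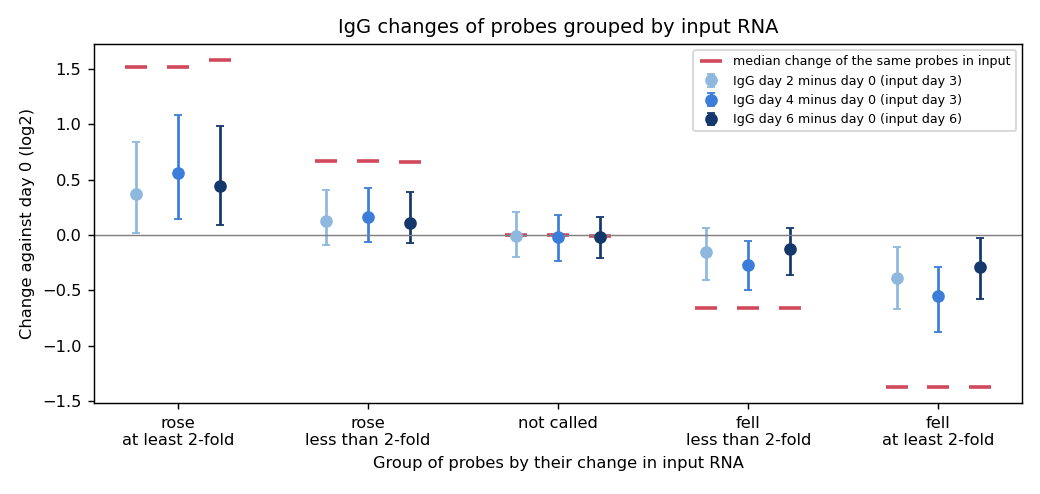
Median log2 change in IgG pulldown RNA against day 0 (points, with the lower to upper quartile of probes as bars) for probes grouped by their change in input RNA on day 3 (IgG days 2 and 4) or day 6 (IgG day 6), over all probes of a group; red dashes give the median change of the same probes in input. Medians in IgG ran in the order of the input groups on all 3 days and lay nearer to 0 than those of input in the groups that changed. The groups were cut on the input change, which favours larger medians in input.

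The probes called in IgG were mostly ones that had moved the same way in input. Of the 65 that rose by day 2, 58 had risen in input by day 3 (89.2%, against 16.8% of all tested probes), 0 had fallen and 7 had not been called. Of the 170 that rose by day 4 it was 154 (90.6%), and of the 225 that rose by day 6 it was 190 on input day 6 (84.4%, against 18.6%). Of the probes that fell in IgG, 20 of 24, 26 of 40 and 17 of 25 had fallen in input, where 20.4%, 20.4% and 23.1% of all tested probes had. Across 12181 probes, which are not independent replicates, the IgG change correlated with the input change of day 3 at r = 0.51 on day 2 and 0.65 on day 4, and with that of day 6 at r = 0.54 on day 6. Within each kind of array these changes share the day 0 arrays.

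Of the 250 probes called in IgG on day 6, 5 were called in the other direction in the separate fit of input. They were picked out after their values were seen. With both kinds of array normalized together, 8 probes were called in both in opposite directions and 324 in the same direction. ILMN_1221750, ILMN_1259339 and ILMN_3160771 fell in IgG by day 6, with changes of -1.78, -1.003 and -1.90 (adjusted p = 0.0361, 0.0311 and 0.0294), and rose in input by 1.36, 1.36 and 1.504. ILMN_1245335 and ILMN_2980661 rose in IgG by 1.78 and 1.37 (adjusted p = 0.00118 and 0.0284), and changed by -0.82 and -2.44 in input.

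A value for each array was made from the input lists of day 6, as the mean log2 signal of the rising list minus that of the falling list, in a normalization of IgG and input arrays together. In IgG RNA it was -1.33, -0.93, -1.25 and -1.34 on day 0 (experiments 1 to 4). On day 2 it was -0.47, -0.40 and -0.37 (experiments 1, 2 and 4), on day 4 it was -0.30, 0.31, 0.07 and 0.06, and on day 6 it was -0.47, -0.35, -0.05 and -0.08. Every array of days 2, 4 and 6 lay above every array of day 0, while the values of days 4 and 6 overlapped. Within each of the 4 experiments the day 6 value was below the day 4 value. With day 6 the numbers were not taken as pairs, and this difference was largest in experiment 2. The means were -1.21 ± 0.19 (SD, n = 4), -0.42 ± 0.05 (n = 3), 0.04 ± 0.25 (n = 4) and -0.24 ± 0.20 (n = 4) on days 0, 2, 4 and 6. The day 4 array of experiment 2, the one with 25.6% of probes detected, was the highest. Its falling list stood at 6.72, against 7.36, 7.21 and 7.30 on the other day 4 arrays. In input RNA, from which the lists were chosen, the value was -1.85 ± 0.33 on day 0, 1.31 ± 0.21 on day 3 and 1.72 ± 0.14 on day 6 (SD, n = 5 arrays each). Arrays 33 and 36 of day 0, 37 and 40 of day 3, and 41 and 44 of day 6 share an experiment number. By day 2 the IgG mean had shifted by 22.3% of the day 6 shift of input, by day 4 it had shifted by 35% and by day 6 by 27.4%. The choice of the lists on input favours a larger shift there, and so smaller shares.

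**Figure D5:**
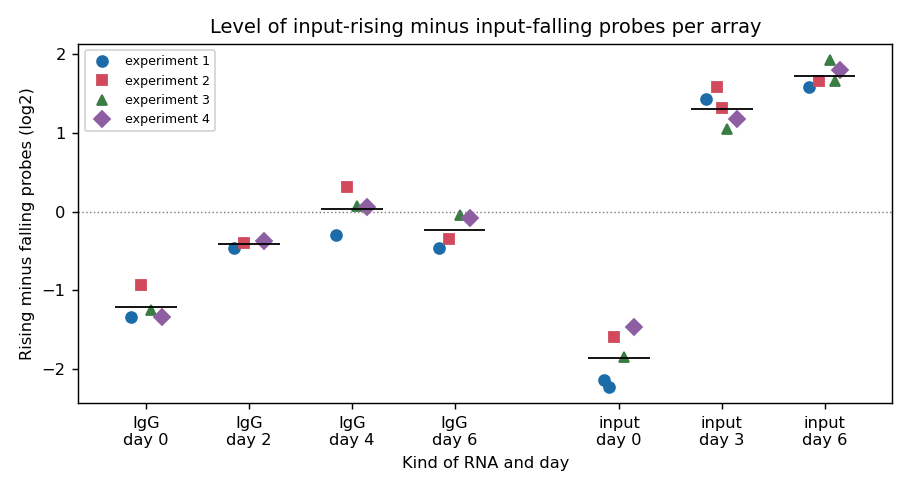
Mean log2 signal of the 1151 probes that rose at least 2-fold in input by day 6 minus that of the 1145 that fell, for each IgG array (left, days 0 to 6) and each input array (right, days 0, 3 and 6); symbols give the experiment number and bars the mean. IgG means ran from -1.21 on day 0 to 0.04 on day 4, and input means from -1.85 on day 0 to 1.72 on day 6.

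Whether IgG RNA changed by another amount than input RNA between days 6 and 0 was tested as a difference of changes, with both kinds of array normalized together. Of 14207 probes, 1314 differed (9.25%), 693 with a higher IgG change (4.88%) and 621 with a lower one (4.37%). Without the arrays of low detection, 1373 differed, and with the experiment number as a block 1360 did. In the same fit as the 1314, 459 probes changed in IgG (3.23%) and 4138 in input (29.1%). Pulldown arrays carry array numbers up to 32 and input arrays from 33, so a difference between these series of arrays cannot be told apart from the pulldown. In 1230 of the 1314 the input change was itself called, and in 1226 of these the IgG change lay on the side of a smaller rise or fall. The median size was 0.28 (log2) in IgG and 1.63 in input among these 1230, whose choice by the difference favours a gap, and 0.23 and 0.36 over all tested probes. The other 4, picked out after their values were seen, are ILMN_1214822, ILMN_1238886, ILMN_2738345 and ILMN_2763404. They rose more in IgG than in input, by 1.74, 2.90, 3.42 and 1.83 (log2) in IgG, against 0.59, 0.96, 1.13 and 0.47 in input.

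The pairs of probes with the highest and the lowest difference of changes were also picked out after their values were seen. In 3 of these 4 probes input changed and IgG did not pass the test, with adjusted p between 0.667 and 0.937 (limma). ILMN_2715802 stood in IgG at 11.42, 11.09, 11.10 and 10.95 on day 6, against 11.98, 10.82, 11.08 and 11.53 on day 0, which overlap. In input it stood at 8.005, 8.08, 7.54, 7.59 and 8.007 on day 6, against 11.88, 11.86, 12.04, 12.10 and 12.84 on day 0. The difference of changes was 4.09 ± 0.34 (SE; limma adjusted p = 1.2e-06). ILMN_2875585 fell in both, with changes of -3.75 ± 0.45 in IgG and -7.63 ± 0.41 in input, a difference of 3.88 ± 0.61 (adjusted p = 0.000475). ILMN_2977331 stood in IgG at 11.85, 12.73, 6.23 and 11.89 on day 6, the third being the array of experiment 3 with low detection, against 9.65, 9.27, 10.01 and 11.90 on day 0. In input it stood between 13.95 and 14.27 on day 6, against 6.45, 4.58, 8.98, 7.57 and 11.05 on day 0. The difference was -5.92 ± 1.66 (adjusted p = 0.0299), with a wide spread in both kinds of array. ILMN_1235230 had IgG values of 8.57, 8.89, 6.49 and 8.98 on day 6, against 8.84, 7.66, 9.10 and 10.59 on day 0, while input rose by 4.22 ± 0.61 (adjusted p = 3.1e-05).

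The AUF1 pulldowns of days 2 and 4 gave no probe whose change from day 0 passed as different from that in IgG. In a normalization of all 29 pulldown arrays, the difference of changes called 0 of 13812 probes for day 2 and 0 for day 4 (limma; 365 and 182 at an unadjusted p under 0.05, or 2.64% and 1.32%). Each pulldown's own calls against its day 0 were 118 in IgG (0.854%) and 237 in AUF1 (1.72%) on day 2, 235 (1.70%) and 234 (1.69%) on day 4, and 321 (2.32%) and 1032 (7.47%) on day 6. Across these probes the IgG and AUF1 changes correlated at r = 0.60 on day 2, 0.74 on day 4 and 0.73 on day 6. They share no array but do share experiment numbers. On day 2 the IgG arrays had 39.3% to 42.8% of probes detected, and the 3 AUF1 arrays had 24.4% to 35.5%, all under the 36% by which IgG arrays were set apart. On day 4 the IgG arrays had 25.6% to 46.8% detected and the AUF1 arrays 24.5% to 39.9%. Dropping the arrays under 36% leaves no AUF1 array for day 2, and for day 4 only that of experiment 4, with 39.9% detected. A fit on so few arrays cannot decide the question. With the detected share as a covariate, limma again called 0 probes on each day (531 and 463 at an unadjusted p under 0.05). Beyond that, the part of low detection in either count was not tested. A count of 0 does not show that the changes were alike, since the median absolute difference of changes was 0.25 (log2) on day 2 and 0.22 on day 4.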

How the data were processed

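Per the file headers, each array has a column of raw signal intensity and one of detection p-value, and the deposited values carry no normalization between arrays. GenomeStudio 1.6.0 appears in the submitters' processing notes. No source used here says if background had been subtracted, and no signal was under 32.4. Columns were assigned to groups by name. All 44 signal columns were read and 0 pairs were identical. The number of arrays limits the precision.

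The steps, run in limma 3.58.1 (R 4.3.3), were normal-exponential background correction from the detection p-values, an offset of 16, quantile normalization and log2 (neqc). A probe was tested if at least 3 arrays in the fit detected it: 12940 in IgG, 13750 in input, 14207 in IgG with input and 13812 in IgG with AUF1. Group means shared 1 moderated spread for each probe (lmFit, eBayes). Benjamini-Hochberg adjustment ran over all tested probes, and an adjusted p under 0.05 was a call. Total RNA is not measured, since arrays were given 1 distribution. The fit was tested on simulated data.

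Probes named per comparison are up to 2 highest and 2 lowest called changes for which each array of the later day lay on 1 side of the earlier day's mean. Exceptions are said to be so. The planned gene lists and markers could not be applied without gene names. The comparisons, lists and rules were chosen with earlier results of these data known. Same-numbered arrays were taken as pairs where each correlation of deviations from the group means was over 0.1. Among the limma fits, only those with the experiment block used the numbers. Alternatives were background correction, scaling, detection filter, arrays in the fit, array weights, the experiment block, detected share as a covariate and leaving out arrays. Dropping the 3 arrays below 36% detection, alone or with the block, and the alternatives for the medians of the input lists were chosen after seeing the data.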

Additional observations from a re-analysis of the deposited data

Results flagged for a closer look

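On day 4, the IgG array of experiment 2 had 25.6% of probes detected, while the other 3 arrays of that day had 43.5% to 46.8%. On day 6, the IgG array of experiment 3 had 35.7%, while the others had 45.2% to 45.8%. On the same day 6 array ILMN_2996648 stood at 4.35 (log2), while the others stood at 5.56 to 5.57. These 3 values lay further from the rest of their group than the gap test allows, out of 36 groups tested, and chance sets apart about 1 in 20. The change between days 6 and 0 differed between IgG pulldown and input RNA at 1314 probes, by the test of the difference itself.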

How the results depend on the processing

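The 9 probes named in the comparisons between IgG days kept their direction under every alternative run (25 or 26 for each comparison), but calls were lost as given above. The probes picked out after their values were seen were not run under alternatives. Median scaling called 5, 22 and 40 probes on days 2, 4 and 6 against day 0, 0 between days 4 and 2 (119 at an unadjusted p under 0.05), 18 over all days and 651 for IgG against input. Array weights called 744, 635, 1232, 47, 2266 and 3652 in that order, and 411 between days 6 and 4. The replicate block by experiment number called 183, 376, 466, 14 and 350, and 0 between days 6 and 4. It changed the call of none of those 9 probes. On day 6 the numbers were not taken as pairs, and there the 466 held 355 higher and 111 lower. The detected share as a covariate called 178, 389, 425, 9 and 369. Without the arrays under 36% detected it was 418 on day 2, 464 on day 4 and 422 over all days, and with the block 1721, 1526 and 26 for days 2 and 4 against day 0 and days 4 and 2. Fits of the compared days alone gave 117 on day 4 and 0 between days 4 and 2. Normalization with the AUF1 arrays gave 4 between days 4 and 2, and no detection filter gave 1 between days 6 and 4. Leaving out 1 array at a time, the counts ran from 34 to 136, 131 to 261 and 155 to 365 on days 2, 4 and 6, 0 to 11 between days 4 and 2, 0 to 0 between days 6 and 4, 114 to 277 over all days, 977 to 1541 for IgG against input, and 0 to 1 and 0 to 0 for IgG against AUF1 on days 2 and 4. The 1 call came without the AUF1 array of experiment 4 on day 2. The median change of the rising list was 0.20, 0.37 and 0.25 without background correction and 0.20 on day 2 with median scaling. That of the falling list was -0.36 on day 4 without background correction. With 1 array left out the rising list ran from 0.32 to 0.39, 0.54 to 0.62 and 0.42 to 0.49 and the falling list from -0.47 to -0.32, -0.65 to -0.45 and -0.37 to -0.21. The cause of these changes was not tested. The fit of IgG and input holds the compared days alone already, so that alternative gave no separate value. Probes near background have changes compressed by the offset.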
